A study of Mus musculus with 18 samples.

Results

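The centromere-proximal H3K9me3 peaks of the mouse autosomes are the peaks on chr1 to chr19 of mm10 whose start lies from position 3000000 to under 8000000. The assembly begins each chromosome with a gap of at least 3 Mb that stands for the centromere. These peaks lie in the 5 Mb after position 3000000, of which 4.82 to 5 Mb per chromosome is known sequence. They number 28289 of 646397 peaks in 6 lists, 1 list per library. H3K9me3 ChIP-seq was made from mESCs (E14TG2a mouse embryonic stem cells, grown in serum and LIF), and lists of 6 of its 18 samples are used here. There were 2 libraries each of wild-type cells (WT), cells labelled UHRF1 knockout (UHRF1KO) and cells labelled DHX9KO. All were labelled with the same antibody and cell line, and the libraries are called replicates 1 and 2. The study made its Uhrf1 knockouts as clonal lines by CRISPR-Cas9 in cells that carry an inducible reporter and the repressor that silences it. How the DHX9KO cells were made is not given in the sources used here. The study's methods call the 2 libraries of a sample biological replicates, without saying whether they were separate cultures or clones, so p-values measure only the spread between these libraries.

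Mouse chromosomes have the centromere at one end. Next to it lie long arrays of the major satellite, a tandem repeat packed in constitutive heterochromatin, most of which is missing from the assembly, and beyond them begins ordinary sequence with genes, LINE-1 elements and endogenous retroviruses such as IAP. H3K9me3 is the histone mark of this heterochromatin. It is laid down at satellites by the SUV39H enzymes and at retroviruses by SETDB1. UHRF1 is an E3 ubiquitin ligase that brings the maintenance DNA methyltransferase DNMT1 to newly copied DNA, and DHX9 is an RNA helicase.

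The lists hold 70195 to 125453 peaks with 6703081 to 20875020 ChIP reads. UHRF1KO replicate 1 stands apart with the fewest of both. The WT and DHX9KO lists carry the same background reads at 100% of the peaks they share exactly, while both UHRF1KO lists carry another background, so for UHRF1KO the genotype cannot be told apart from the background. Replicate number does not mark a shared culture or day in the labels. A peak is a stretch of 200-bp bins, and its log2 fold is the authors' ChIP over background, each relative to library size.

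The sequence with the most reads in these windows is the major satellite at the first bases of chr9, whose peak holds 39.6% of the proximal reads in WT replicate 2 and 23.3% in DHX9KO replicate 2. The stretch below lies between exact matches of the study's major satellite primers at chr9:3000474-3000605 (minus strand, mm10), and capitals mark the primer sites. An identical copy, 132 of 132 bases, lies at chr12:3109894-3110025 on the plus strand. The forward and reverse primers match 42 and 89 times at the start of chr9, with 234 bp as the most frequent spacing, and once each on chr12.
Major satellite, chr9: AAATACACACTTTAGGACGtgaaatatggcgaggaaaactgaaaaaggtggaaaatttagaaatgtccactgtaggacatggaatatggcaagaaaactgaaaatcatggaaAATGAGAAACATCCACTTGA
Forward primer: aaatacacactttaggacg
Reverse primer: tcaagtggatgtttctcatt

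Regions of 4 kinds recur in the results below. The 200-base stretch with the most CpG of an example of each is shown (plus strand, mm10, CG in capitals). The region lost in UHRF1KO at Dtnb is represented by chr12:3590022-3590221, the one gained in UHRF1KO by chr13:5283698-5283897, the one gained in DHX9KO by chr3:6738420-6738619 and a strong one called in all 6 libraries by chr9:4854411-4854610. They hold 8, 14, 13 and 20 CpG. Soft-masked repeats make up 23.5% of the first, 100% of the second and the third, and 93.5% of the fourth. The whole regions they come from are 38.6%, 51.2%, 100% and 77.1% masked. Single examples do not give the composition of a kind. The stretch of a region lost in UHRF1KO at Peg3 holds 17 CpG. Over all proximal regions, those lost in UHRF1KO held 10.7 CpG per kb and those gained 7.55.
Lost in UHRF1KO, Dtnb: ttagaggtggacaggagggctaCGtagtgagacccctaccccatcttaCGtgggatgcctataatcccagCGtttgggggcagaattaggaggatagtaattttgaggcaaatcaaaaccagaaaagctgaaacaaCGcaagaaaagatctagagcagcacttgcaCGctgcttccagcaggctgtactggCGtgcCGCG
Gained in UHRF1KO, chr13: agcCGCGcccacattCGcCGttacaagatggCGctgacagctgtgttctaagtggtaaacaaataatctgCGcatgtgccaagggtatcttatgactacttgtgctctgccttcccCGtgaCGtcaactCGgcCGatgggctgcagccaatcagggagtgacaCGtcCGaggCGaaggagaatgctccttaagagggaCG
Gained in DHX9KO, chr3: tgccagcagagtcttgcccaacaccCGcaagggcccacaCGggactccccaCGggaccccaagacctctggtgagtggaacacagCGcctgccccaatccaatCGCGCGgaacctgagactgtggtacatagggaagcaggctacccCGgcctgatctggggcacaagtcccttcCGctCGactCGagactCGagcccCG
Strong in all 6 libraries, chr9: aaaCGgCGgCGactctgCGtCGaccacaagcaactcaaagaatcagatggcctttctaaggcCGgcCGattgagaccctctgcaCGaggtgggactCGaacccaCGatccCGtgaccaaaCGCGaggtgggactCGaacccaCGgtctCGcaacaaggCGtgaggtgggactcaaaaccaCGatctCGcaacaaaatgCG

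Counting all deposited peaks, the proximal windows of WT cells were covered a little less than the rest of the same chromosomes, an order that depends on which peaks are counted. Peaks covered 15.2% and 14.5% of the known proximal bases in WT replicates 1 and 2, beside 17.3% and 16.7% of the rest. The ratio of the proximal to the rest covered share was 0.879 and 0.867 (mean 0.873 ± 0.00819, SD, n = 2). It turned to 1.14 with peaks of a log2 fold of at least 1, and to 1.07 with an equal number of the strongest peaks of each list. In UHRF1KO the proximal share was 12.7% and 14.3% and the rest 8.10% and 14.0%, which gave ratios of 1.57 and 1.03. In DHX9KO the proximal share was 16.8% and 18.5%, the rest 17.0% and 16.4%, and the ratio 0.991 and 1.13. All 4 knockout ratios were above both WT ratios.

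The log2 ratio was 0.54 higher in UHRF1KO than in WT (means 0.34 and -0.20) and 0.28 higher in DHX9KO (mean 0.08). The exact two-sided permutation test gave p = 0.33 for both, which is the smallest value 2 against 2 libraries can give. Without UHRF1KO replicate 1 the first difference was 0.23. The covered share of the rest had a mean of 17.0% in WT and 11.0% in UHRF1KO, while the proximal mean was 14.8% and 13.5%. By count, the proximal peaks were 4766, 4922, 3547, 4244, 5451 and 5359 in WT replicates 1 and 2, UHRF1KO replicates 1 and 2 and DHX9KO replicates 1 and 2, in that order, or 4.18%, 4.18%, 5.22%, 4.67%, 4.39% and 4.53% of the autosomal peaks.

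**Figure D1:**
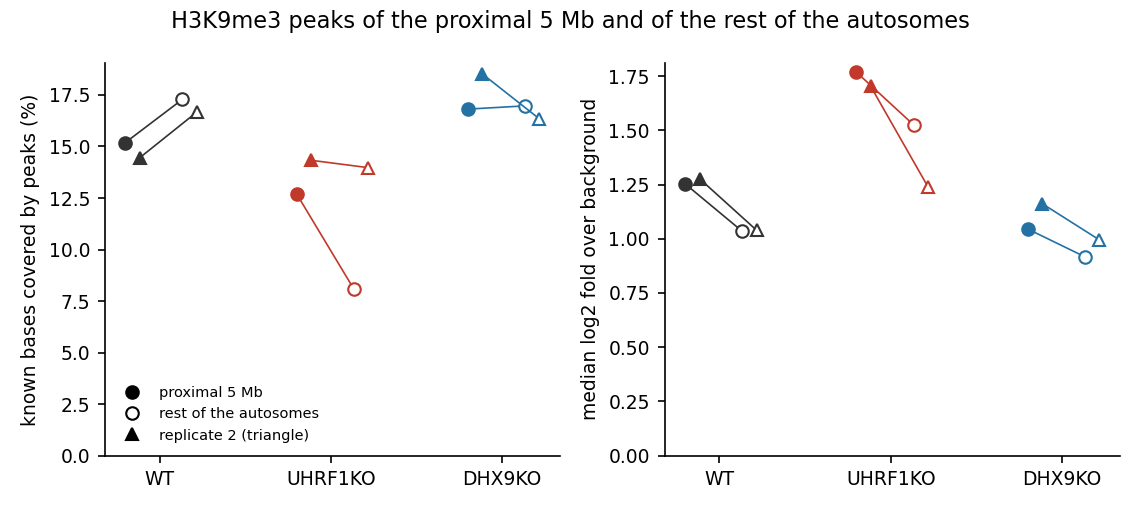
Percent of known bases covered by H3K9me3 peaks (left) and median log2 fold over background (right) in the proximal windows (filled) and on the rest of the autosomes (open), 1 line per library and 2 libraries per group. Both WT lines rise from proximal to rest in covered percent, and all 6 lines fall in log2 fold.

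Proximal peaks were also stronger than peaks elsewhere in every library. Their median log2 fold over background was 1.25 and 1.28 in WT, beside 1.03 and 1.04 on the rest. In UHRF1KO the medians were 1.77 and 1.70 beside 1.53 and 1.24, and in DHX9KO 1.04 and 1.16 beside 0.92 and 1.00. Median widths were 2200 to 2400 bp proximally and 2200 to 2800 bp on the rest. Read density per kb called was 93.4 and 93.1 in WT, beside 48.4 and 46.9 on the rest. Once the chr9 satellite peak was left out, 58.4 and 56.6 remained. Without that peak it was 35.6 and 68.7 in UHRF1KO, beside 31.8 and 47.6 on the rest. The UHRF1KO values still include a peak over the chr12 satellite copy, with 48549 and 90632 reads, so they are not free of satellite. In DHX9KO the density without the chr9 peak was 51.4 and 56.5, beside 47.4 and 50.2.

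The 19 windows were not alike. In WT the share covered was highest on chr11 (mean 26.3%), chr17 (21.4%) and chr18 (19.9%) and lowest on chr14 (5.45%), chr6 (9.81%) and chr1 (10.3%). The chr14 window is also the one with the most soft-masked sequence, 60.2%. Both WT libraries were above the rest of their chromosome on 8 of 19 chromosomes, where 40.8% of all 490 windows of 5 Mb were. Ranked by mean WT covered share among the windows of its own chromosome, the proximal one stood from the 3rd of 18 on chr18 to the 20th of 25 on chr14.

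The direction of the knockout change differed from chromosome to chromosome. Both UHRF1KO ratios were above both WT ratios on 14 of 19 chromosomes, beside 48.6% of all windows, and below both on 3, beside 31.4%. Both DHX9KO ratios were above both WT ratios on 14 chromosomes and below on 2, beside 48.2% and 24.9% of all windows. On chr9 the proximal share went from 14.5% and 14.9% in WT to 24.7% and 19.5% in UHRF1KO and 15.4% and 22.8% in DHX9KO. UHRF1KO lies above WT there in both libraries, as does DHX9KO. The DHX9KO replicate 1 value leaves out a satellite peak that begins 200 bases before position 3000000 and was 16.9% with that peak counted from there. On chr19 the order was the opposite, with 18.5% and 16.2% in WT, 4.14% and 7.13% in UHRF1KO and 16.3% and 10.3% in DHX9KO, where 1 DHX9KO library lies between the WT libraries. Relative to the rest of the chromosome the log2 ratio moved by +1.45 on chr5 and +1.42 on chr9 in UHRF1KO and by -0.63 on chr17 and -0.99 on chr19. In DHX9KO the extremes were +0.80 on chr4 and -0.36 on chr19.

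On chr4, DHX9KO replicate 1 had 34.8% of the window and 29.2% of the rest covered, far above its partner with 21.6% and 14.9%. On chr8 it was the reverse, 9.80% and 14.3% beside 24.0% and 31.2%, so the DHX9KO values of those chromosomes differ between the libraries along their whole length.

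**Figure D2:**
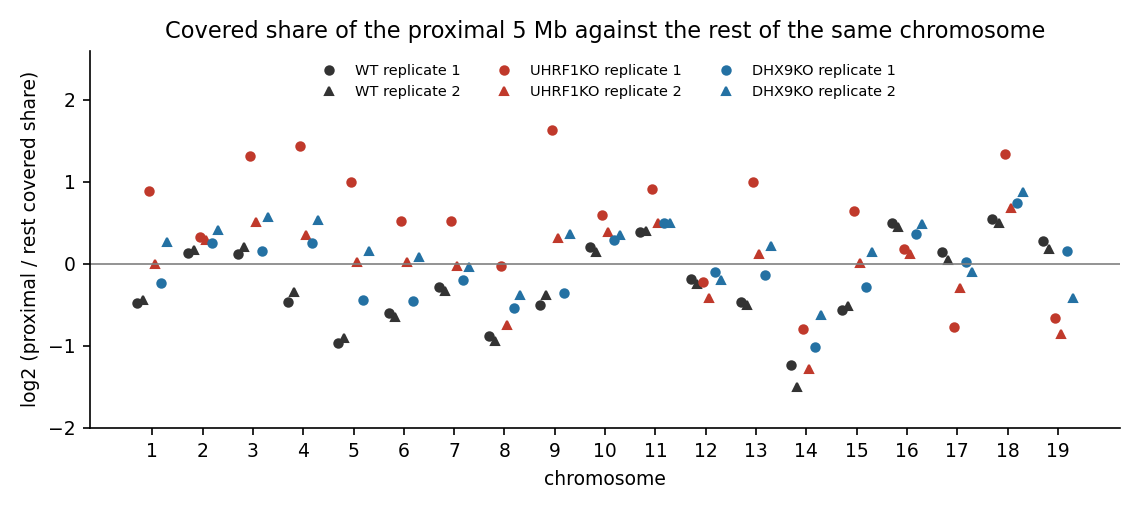
Log2 of the covered share of the proximal window over that of the rest of the same chromosome, by chromosome, 1 point per library, with the 3 groups marked by colour and a line at equal shares. All knockout points lie above both WT points on chr9 and below both on chr19.

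Base composition moved with this pattern. Over the 19 windows GC content ran from 38.1% on chr3 to 47.7% on chr19, and the change of log2 ratio from the WT mean fell with it in all 4 knockout libraries. Pearson's r was -0.82 and -0.81 in UHRF1KO and -0.52 and -0.81 in DHX9KO, with Spearman's rho of -0.83, -0.76, -0.47 and -0.73. Without the 2 windows farthest from the median GC content r was -0.83, -0.74, -0.43 and -0.71. Windows of 1 library share its depth and the WT values, so these are descriptions of 19 points. The 471 other windows gave -0.84, -0.71, -0.44 and -0.86, so the relation is not particular to the proximal ones. With soft-masked content r was 0.54, 0.39, 0.34 and 0.54 over the 19 windows.

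When the rest was weighted to the GC content of the proximal windows, the log2 ratio was 0.41 higher in UHRF1KO than in WT and 0.20 higher in DHX9KO. Weighted to the soft-masked content it was 0.21 and 0.15 higher, and the WT ratio became 1.03. Both weightings were chosen after seeing the data.

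**Figure D3:**
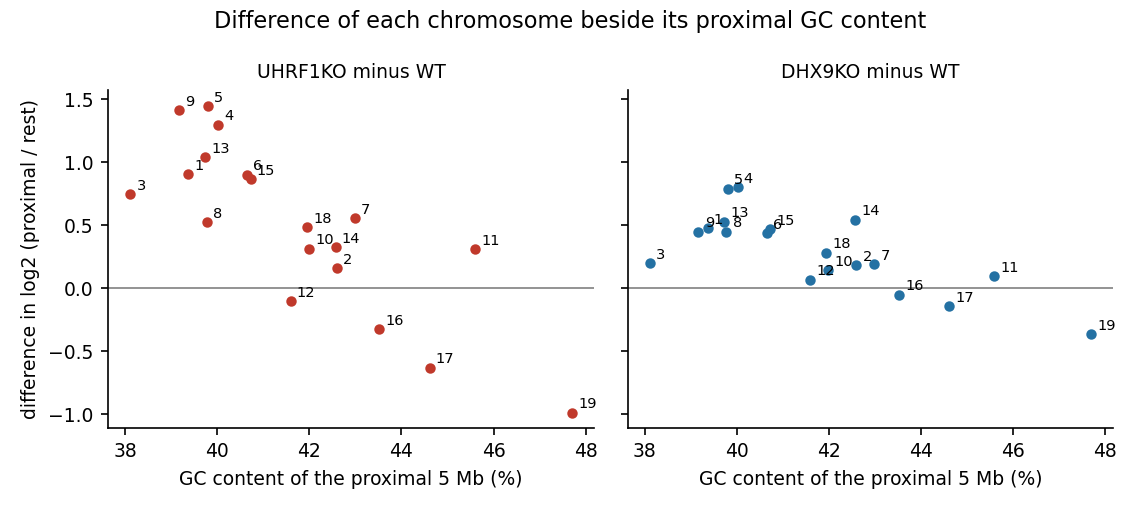
Difference of the log2 proximal to rest ratio between each knockout and WT (means of 2 libraries) against the GC content of the proximal window in percent, 1 numbered point per chromosome and 1 panel per knockout. Points fall from left to right, with chr19 at 47.7% GC lowest in UHRF1KO.

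Along the 5 Mb, coverage was highest next to the gap. In the first 1 Mb after position 3000000 peaks covered 19.5% and 18.6% in WT, 17.3% and 18.9% in UHRF1KO and 19.6% and 22.7% in DHX9KO. UHRF1KO overlaps WT, and both DHX9KO libraries lie above both WT libraries, the first by less than the WT libraries differ. Relative to the rest this was 1.13 and 1.12 in WT, 2.14 and 1.35 in UHRF1KO and 1.16 and 1.39 in DHX9KO. In the last 1 Mb of the windows the WT values were 0.78 and 0.77, those of UHRF1KO 1.60 and 1.02 and those of DHX9KO 0.91 and 1.11. Just outside, from 8 to 9 Mb, WT was at 1.02 and 1.01, and UHRF1KO still at 1.52 and 1.21. In the first 100 kb alone 28.6% and 27.8% were covered in WT and 33.9% and 34.0% in UHRF1KO, while DHX9KO gave 22.9% and 36.8%. The lower DHX9KO value leaves out the chr9 satellite peak, which begins 200 bases before position 3000000 in that library. With the peak counted from position 3000000 it was 28.1%, between the WT libraries (chosen after seeing the data). The first peak began a median of 15400 to 20400 bp after position 3000000, and at most 128200 bp after it, in UHRF1KO replicate 1 on chr14. Part of such a distance can be sequence that is not known. The windows of chr2, chr4, chr6 and chr15 hold 4.95 Mb of known bases, and their first peaks began 49800 to 52000 bp after that position. The chr11 window holds 4.9 Mb, and its first peaks began at 100000 to 100400 bp.

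**Figure D4:**
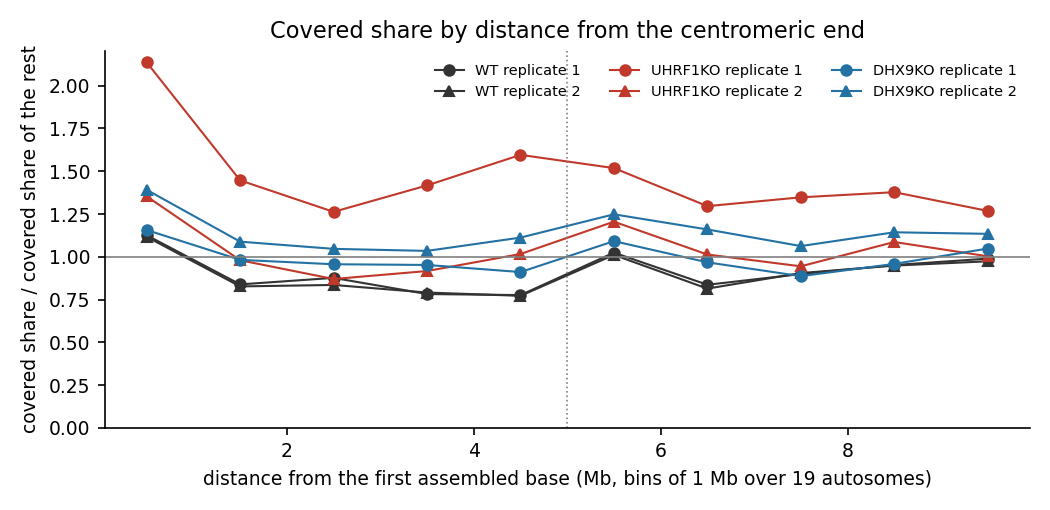
Covered share in 1-Mb bins from position 3000000, summed over 19 autosomes and divided by the rest of the chromosomes, 1 line per library. All 6 libraries are highest in the first bin, and UHRF1KO replicate 1 lies above the others, from 2.14 in the first bin to 1.60 in the last proximal one.

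The satellite of which a stretch is printed above carried a large part of the proximal reads. A peak from the start of chr9 to between positions 3072600 and 3077600 held 506011 and 502046 ChIP reads in WT, 192883 and 318974 in UHRF1KO and 258751 and 299369 in DHX9KO. That is 2.42% and 2.57% of all reads in peaks in WT, 2.88% and 1.88% in UHRF1KO and 1.31% and 1.46% in DHX9KO. By this share the DHX9KO values lie below both others, and UHRF1KO spans WT. The share depends on how much was called in a library. All reads in peaks were 6703081 in UHRF1KO replicate 1, beside 20875020 and 19543177 in WT. In DHX9KO replicate 1 the peak begins at position 2999801, 200 bases before the limit, so it is not counted among the members, although its values are given here. Over background, the log2 fold was 1.61 and 1.65 in WT, 1.03 and 0.87 in UHRF1KO and 0.48 and 0.70 in DHX9KO. By this measure both UHRF1KO libraries lie below WT, with another background in their lists. The DHX9KO mean was 0.59 ± 0.15 (SD, n = 2) and the WT mean 1.63 ± 0.03, a difference of -1.04 with p = 0.33 by the exact permutation test, again the smallest possible.

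In the count test over regions called in all 4 libraries, the chr9 satellite region was lower in DHX9KO (log2 change -0.84 ± 0.16 SE, edgeR quasi-likelihood test, adjusted p = 0.0241). That call was lost without WT replicate 1, WT replicate 2 or DHX9KO replicate 1, with equal library sizes and with no length offset (adjusted p from 7.6e-08 to 0.307 over the alternatives). In UHRF1KO the change was -0.71 ± 0.32 SE (edgeR, adjusted p = 0.178, from 0.000444 to 1 over the alternatives). On chr12, at the identical copy, peaks were called in both UHRF1KO libraries alone, with 48549 and 90632 reads and a log2 fold of 0.35 and 0.36. Summed over both sites the share of all peak reads was 3.60% and 2.41% in UHRF1KO and 2.42% and 2.57% in WT. The first UHRF1KO share is again taken over the fewest reads in peaks. Reads of such identical repeats cannot be placed at one copy, and how multi-mapped reads were assigned is not given in the lists.

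**Figure D5:**
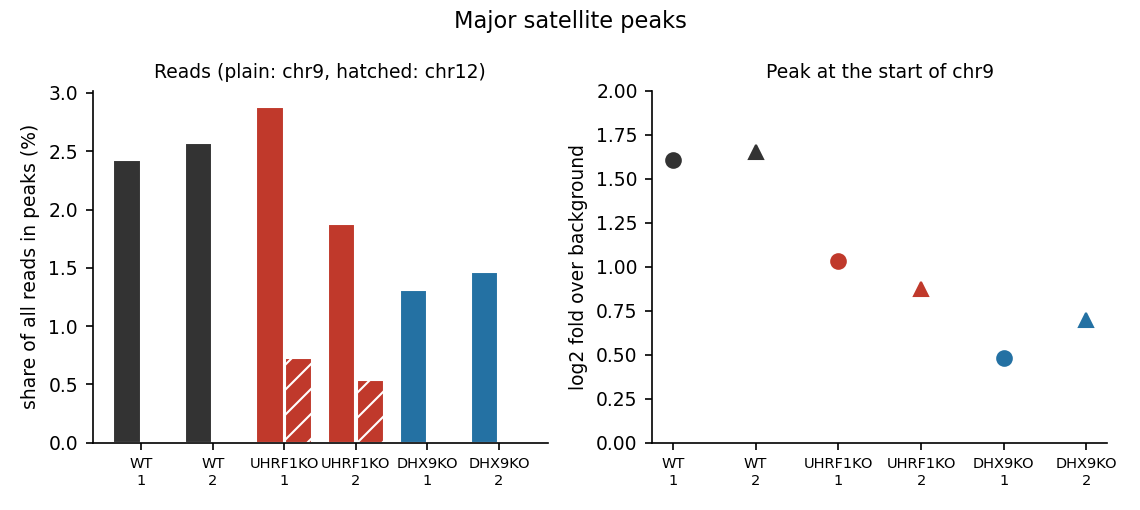
Major satellite peaks by library, as bars of the percent of all reads in peaks (plain for chr9, hatched for chr12) and as points of the log2 fold over background for the peak at the start of chr9. WT lies at 1.61 and 1.65 in log2 fold and all 4 knockout libraries lie at 1.03 or below.

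Proximal sequence holds more repeats than the rest, 39.8% soft-masked beside 33.2%, and so did its peaks. In WT, soft-masked repeats made up 41.0% and 42.1% of the proximal peak bases, beside 27.6% and 28.5% on the rest, and 59.1% and 60.1% was intergenic, beside 50.0% and 50.4%. In UHRF1KO 56.0% and 47.2% of proximal peak bases were masked, and in DHX9KO 41.2% and 46.7%. Among exact matches of the study's primers for the L1MdTf LINE-1 subfamily, 23.4% and 20.3% of 291 proximal forward primer sites were in a peak in WT, 27.8% and 47.4% in UHRF1KO and 21.6% and 32.6% in DHX9KO. The 6616 sites on the rest gave 16.3% and 19.7%, 20.6% and 42.4%, and 14.6% and 22.1%. IAP is an active family of endogenous retroviruses. Of 63 proximal matches of its forward primer 32 (50.8%) lay in a peak in each WT library, 31 and 43 (49.2% and 68.3%) in UHRF1KO and 14 and 27 (22.2% and 42.9%) in DHX9KO. The 1013 sites on the rest gave 47.4% and 45.8% in WT, 47.5% and 65.9% in UHRF1KO and 28.4% and 44.1% in DHX9KO, so the proximal shares are near the general ones and DHX9KO replicate 1 is low in both places. Of 15 proximal matches of the IAPEY LTR primer 12 to 15 were in a peak in every library, beside 58.4% to 78.9% of 298 sites on the rest.

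Merging overlapping or abutting peaks of the 6 lists gave 6950 proximal regions, of which 1928 (27.7%) had a peak in all 6 libraries and 1915 (27.6%) in 1. On the rest 22.2% of 147387 regions were in all 6. Between WT and UHRF1KO, 665 of 3428 proximal regions with a peak in both WT libraries had none in either UHRF1KO library (19.4%, exact 95% interval 18.1 to 20.8%), beside 24.2% of all regions. In the other direction 247 of 2661 UHRF1KO regions were gained (9.28%, 8.21 to 10.4%), beside 8.51%. In DHX9KO 163 of 3439 were lost (4.74%, 4.05 to 5.50%), beside 6.97%, and 388 of 3557 gained (10.9%, 9.90 to 12.0%), beside 8.74%. Of those 388, 79 lay on chr4, where 28.3% of 279 proximal regions were gained, beside 15.8% on the rest of chr4. DHX9KO replicate 1 is covered more than its partner along the whole of that chromosome. Leaving out any 1 library moved the DHX9KO loss to between 10.6% and 12.3%, with 13.9% to 17.8% on the rest, and that of UHRF1KO to between 20.6% and 35.7%, with 26.3% to 48.9%. The intervals cover counting error only, and regions are not replicates.

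Lost regions held fewer repeats and more GC than gained ones, in the proximal windows and on the rest alike. In UHRF1KO the lost proximal bases were 23.1% masked with 48.7% GC, and 53.0% intronic, while the gained ones were 45.8% masked with 41.8% GC, and 78.7% intergenic. In DHX9KO lost regions had 47.5% GC and 30.1% masked sequence, and gained ones 43.3% and 35.8%. On the rest, regions lost in UHRF1KO had 48.8% GC and 22.3% masked sequence, and gained ones 42.5% and 42.3%. For DHX9KO the rest gave 47.7% and 27.1% in lost regions and 43.9% and 33.6% in gained ones, so the contrast is not particular to the proximal windows. By chromosome, UHRF1KO lost 96 of 180 WT regions (53.3%) of chr19, beside 25.9% on the rest of chr19, and 5 of 200 (2.50%) of chr9, beside 26.7%.

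The log2 fold of a merged region is the highest among its peaks in that library, not a value for the whole region. The 3 widest regions called in all 6 libraries included chr8:3692601-3755000 over the lectin and Fc receptor genes Fcer2a, Clec4g and Cd209a, 62.4 kb wide. Its log2 fold was 1.10 and 1.93 in WT, 2.10 and 2.09 in UHRF1KO and 1.14 and 1.48 in DHX9KO. Another lay on chr12:5201401-5260800 in Klhl29, where UHRF1KO replicate 1 called 12.5% of the region and WT 92.6% and 76.4%. Of the regions called in all 6 libraries, ranked by the lower of their WT log2 folds, the first was chr18:6322601-6374000. The log2 fold of its strongest peak was 5.83 and 5.35 in WT, 2.78 and 3.42 in UHRF1KO and 2.51 and 2.40 in DHX9KO. Reads over the whole region, not scaled to depth, did not follow that order. They were 2723 and 2319 in WT, 1594 and 3685 in UHRF1KO and 2002 and 2632 in DHX9KO. Peaks filled 68.1% and 68.5% of it in WT, 90.7% and 90.3% in UHRF1KO and 72.0% and 75.5% in DHX9KO. Since WT values chose these regions, their order between groups is a description. Next came the intergenic chr9:4852001-4863800, 55767 bp from the glutamate receptor gene Gria4. Its log2 fold was 4.51 and 4.24 in WT, 1.88 and 2.46 in UHRF1KO and 1.72 and 4.55 in DHX9KO, where the DHX9KO libraries span WT. Reads over this region were 284 and 368 in WT, 250 and 550 in UHRF1KO and 256 and 515 in DHX9KO. The others of the 5 first in WT were chr12:7155601-7158600, chr4:7834201-7836800 and chr12:3335801-3343000, with WT log2 folds from 3.80 to 4.48. The strongest peak of the chr4 region was also high in the knockouts, at 4.54 and 3.85 in UHRF1KO and 3.37 and 2.87 in DHX9KO. Peaks filled 38.5% and 100% of that region in WT, 15.4% and 100% in UHRF1KO and 7.69% and 69.2% in DHX9KO. The replicate 1 value of each knockout thus belongs to a small part of it.

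Among the strongest regions lost in UHRF1KO was chr12:3588201-3592600 in Dtnb, a dystrobrevin gene, with 390 and 367 reads in WT and no peak in UHRF1KO. The others included chr7:6722001-6733000 at Peg3 and Usp29, imprinted genes (log2 fold 1.92 and 2.09 in WT), chr19:6997601-7004200 at Trpt1 and Fermt3 (1.87 and 1.79), chr7:6129801-6138200 at the zinc finger gene Zfp787 and chr10:3427001-3429400 in Ppp1r14c, a phosphatase inhibitor gene. Gained ones were the intergenic chr13:5281801-5287400 (log2 fold 3.75 and 3.36 in UHRF1KO), chr8:5796601-5799200 (3.35 and 3.30) and chr3:3660401-3662600, 2349 bp from the transcription factor gene Hnf4g (3.08 and 2.98). In DHX9KO, regions lost included chr7:7301801-7304600 near the chloride transporter gene Clcn4 and chr2:5050601-5053200 in Optn, an autophagy receptor gene, with WT log2 folds from 1.38 to 2.16. The others were chr15:6653001-6655800 in the T cell adaptor gene Fyb, chr12:5409801-5412800 and chr8:5270601-5272600. Gained ones were chr3:6738401-6741200 (2.24 and 2.03), and 2 introns on chr4, of Fam110b and Tox, on the chromosome where DHX9KO replicate 1 is covered most.

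Read counts were tested over 490 windows of 5 Mb, 19 of them proximal. In UHRF1KO edgeR called 0 windows lower and 0 higher over the genome (0% called), and of the proximal windows 2 were lower and 9 higher at an unadjusted p under 0.05, beside 22.2% and 25.3% of all. DESeq2 called 3 proximal windows lower and 10 higher, beside 29.8% and 34.9%. The median log2 change over the proximal windows was 0.43 and over the rest -0.01. The chr12 window, which holds the satellite copy, was at 1821 and 1739 CPM (reads in peaks per 1e+06, after TMM scaling) in WT and 9300 and 6772 in UHRF1KO (edgeR log2 change 2.17 ± 0.24 SE, adjusted p = 0.0784). The satellite peak held 48549 of its 59773 reads in UHRF1KO replicate 1 and 90632 of 121827 in replicate 2. The chr19 window was at 1998 and 1865 in WT and at 932 and 1061 in UHRF1KO, a log2 change of -0.96 ± 0.13 SE (edgeR, adjusted p = 0.0784).

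In DHX9KO edgeR called 0 proximal windows, beside 0.204% of all lower and 0% higher, with 1 lower and 1 higher at an unadjusted p under 0.05, beside 2.04% and 4.49%. DESeq2 called 1 lower and 1 higher, beside 3.62% and 5.43%. The proximal median log2 change was 0.07 and that of the rest 0.005. The chr9 window had a log2 change of -1.63 ± 1.27 SE, which rests on the peak that the limit leaves out of DHX9KO replicate 1. With that peak kept it was -0.85 ± 0.22 SE (edgeR, adjusted p = 0.544).

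Among regions with a peak in each of the 4 libraries of a comparison that covers at least 80% of them, edgeR found 15 of 196 proximal regions lower and 2 higher in UHRF1KO, beside 6.37% and 1.9% of all 2528. At an unadjusted p under 0.05 there were 35 and 18, beside 16.7% and 9.3%, and DESeq2 called 11 lower and 2 higher of 173, beside 3.66% and 1.33%. The edgeR counts are near the shares of all regions. The largest decrease was at chr6:5704801-5706600, 19039 bp from the dynein gene Dync1i1, with 308 and 374 reads per kb in WT and 70.0 and 172 in UHRF1KO (log2 change -1.32 ± 0.15 SE, adjusted p = 0.000113). Others that fell and begin within the first 1 Mb were chr16:3231401-3243000 (log2 change -1.17), chr17:3002001-3039000 (-1.13) and chr4:3058401-3091600 (-0.89), and another lies in the lectin gene Cd209b at chr8:3925801-3927600 (-0.98). The 2 that rose were chr10:7885601-7894200 near Tab2, a signalling adaptor gene (log2 change 0.64), and chr15:3951801-3957800 near Fbxo4 (0.55). Each of these 7 calls was lost with equal library sizes, and without WT replicate 2 (edgeR, adjusted p from 4.7e-08 to 1 over the alternatives for the chr6 region).

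In DHX9KO 2 of 300 proximal regions were lower and 0 higher by edgeR, beside 0.489% and 0.0425% of all 4701, with 30 lower and 15 higher at an unadjusted p under 0.05, beside 7.68% and 4.42%. DESeq2 called 4 of 144 lower and 0 higher, beside 1.16% and 0.0429%. The first was chr17:3002001-3039000, with 356 and 313 reads per kb in WT and 177 and 146 in DHX9KO (log2 change -1.03 ± 0.15 SE, edgeR adjusted p = 0.00416). The second was chr3:3000001-3033800, which begins at the first base after the gap, with 247 and 218 reads per kb in WT and 121 and 128 in DHX9KO (-0.90 ± 0.13 SE, edgeR adjusted p = 0.0038). In both, the libraries of the 2 groups do not overlap, but neither call held when all regions called in every library were tested (edgeR, adjusted p = 0.0583 for chr17 and 0.0514 for chr3). The chr3 call was also lost without either WT library (edgeR, adjusted p from 2.1e-12 to 0.109 over the alternatives, and from 5.2e-18 to 0.0583 for chr17). The chr17 region was lower in both knockouts, which share the WT libraries.

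Protein-coding genes of the windows were covered less than those of the rest in all 6 libraries. Peaks covered 12.7% and 11.8% of the bases of the 907 protein-coding genes in WT, 4.92% and 8.30% in UHRF1KO and 13.2% and 11.3% in DHX9KO, beside 17.3% and 16.6%, 5.04% and 12.0%, and 16.2% and 13.2% for 19900 genes of the rest. The imprinted Peg3, a zinc finger gene expressed from the paternal copy, was covered by 64.2% and 42.3% in WT, 0% and 17.3% in UHRF1KO and 40.1% and 55.9% in DHX9KO. Peg10, a gene of retrotransposon origin, was at 27.2% and 27.2% in WT, 40.9% and 43.9% in UHRF1KO and 24.2% and 27.2% in DHX9KO, so both UHRF1KO libraries lie above WT. Oprk1, an opioid receptor gene, was at 0% in both WT libraries, 12.5% and 29.1% in UHRF1KO and 25.7% and 11.0% in DHX9KO, so every knockout library lies above WT.

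Among the other imprinted genes, Usp29 was covered by 14.4% and 18.2% in WT and 0.338% and 4.90% in UHRF1KO. Zim1 was at 38.9% and 30.2% in WT and at 7.15% and 20.6% in UHRF1KO, below WT in both libraries. Calcr, a calcitonin receptor gene, went the other way, from 4.55% and 8.10% in WT to 18.4% and 11.6% in UHRF1KO. Zfp264 was at 65.0% and 40.1% in WT and 13.6% and 70.5% in UHRF1KO, one library on each side of WT. Ppp1r9a and Asb4 overlapped or touched WT, with 3.22% to 8.07% in WT and 0.447% to 6.77% in UHRF1KO. Sgce was covered by 3.0% or less in WT and by 0% in both UHRF1KO libraries. The widely expressed Tcea1, Atp6v1h and Rb1cc1 reached at most 5.4% in any library. The tissue-specific Xkr4, Rp1 and St18 lay between 3.7% and 14.3% in every library, and Sox17, an endoderm transcription factor gene, was covered in WT replicate 2 alone (14.9%). Zinc finger genes named Zfp, many of which encode repressors, were covered by 8.90% and 6.80% in WT, 8.27% and 5.70% in UHRF1KO and 6.72% and 7.63% in DHX9KO over 23 proximal genes, beside 16.7% and 16.6% in WT over 362 on the rest. Other families had few proximal members, with 14 Vmn1r, 9 Vmn2r, 3 Nlrp and 10 Olfr genes.

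The 290 cluster of microRNAs on chr7, expressed in embryonic stem cells, was free of peaks at Mir290a, Mir291a, Mir293, Mir294 and Mir295 in all 6 libraries, as were Mrpl15 and Lypla1. Mature sequences of the cluster that share a seed (bases 2 to 8, in capitals), as RefSeq gives them for GRCm38.p6, are printed to show which microRNAs these peak-free bases encode.
mmu-miR-291a-3p: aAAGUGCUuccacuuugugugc
mmu-miR-294-3p: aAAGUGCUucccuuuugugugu
mmu-miR-295-3p: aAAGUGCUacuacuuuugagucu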

How the data were processed

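H3K9me3 ChIP-seq peak lists of 6 libraries were used; the other 12 samples of the study were not analysed here. Groups and replicate numbers came from the sample labels. Reads had been aligned by the authors to mm10 with Bowtie2 2.3.4.3 and subsampled. Peaks had been called in each library with epic2 (SICER 0.0.51 in the submitters' processing notes) against input, with duplicates kept. The study's methods name wild-type input as the background, but the UHRF1KO lists carry another background than the WT lists. The deposited lists hold, per peak, raw read counts of ChIP and of background, a p-value and its false discovery rate, a score and a log2 fold over background, all by the authors' caller.

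Peaks of chr1 to chr19 starting from 3000000 to under 8000000 were taken as proximal, and covered bases were divided by known (not N) bases, 94.2 Mb proximal and 2302 Mb on the rest. Overlapping or abutting peaks were merged into regions, and a region took the highest log2 fold of its peaks in each library. Read counts of 5-Mb windows, and of regions called in all 4 libraries and covered to at least 80% in each (called length as offset), were tested with edgeR 4.0.16 in R 4.3.3 (TMM, quasi-likelihood, Benjamini-Hochberg false discovery rate 0.05), with DESeq2 1.42.0 as an alternative. The edgeR step was also run on simulated data with 200 changed features and a capped spread between libraries. That run does not measure the error of the calls in these libraries. Ratios were compared by an exact two-sided permutation test over libraries. Other steps used Python 3.11.15, numpy 2.4.6, pandas 2.3.3 and scipy 1.17.1, with the GENCODE M21 annotation and GRCm38.p6 RefSeq sequence.

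Named regions were the strongest and widest proximal ones in all 6 libraries, the strongest lost and gained ones of 2 kb or longer, up to 5 tested ones each way, and windows at the extremes of WT coverage; named genes came from lists of imprinted, stem cell, widely expressed and tissue-specific genes. The members and lists were chosen with earlier results of these data known. Depth is the sum of ChIP reads in peaks, and intervals cover counting error only. Alternatives covered peak thresholds, window length, normalization, filters, replicate block and leaving out each library.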

Additional observations from a re-analysis of the deposited data

How the results depend on the processing

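Of 275 recomputed values 3 changed direction, all of the WT ratio, which crossed 1. Among the values that answer a comparison, 96 stayed within the limits set for them and 66 moved. For the log2 ratio differences the limit was only an unchanged sign. The other values belong to named regions and the chr9 satellite. Of these, 71 kept the outcome of the main test, 37 lost a call and 2 gained one. The WT ratio became 0.907 at a false discovery rate of at most 1e-10, 1.14 with a log2 fold of at least 1, 1.07 with equal numbers of peaks, 0.979 and 0.902 with windows of 2 and 10 Mb, 0.860 without the first 100 kb, and, in weightings added after seeing the data, 0.970 for GC content and 1.03 for masked content. The log2 ratio difference from WT stayed positive throughout, at 0.21 to 0.85 in UHRF1KO and 0.15 to 0.38 in DHX9KO. The share of proximal regions lost was 15.7%, 12.5%, 11.6% and 18.0% in UHRF1KO under the stricter rate, the fold minimum, equal peak numbers and merging across 1 kb, and 6.93%, 8.33% and 7.02% in DHX9KO under the first 3. Leaving out 1 library gave 20.6 to 35.7% and 10.6 to 12.3%.

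For UHRF1KO windows, DESeq2 called 3 lower and 10 higher, a log2 fold of at least 1 gave 2 and 1, and leaving out 1 library 0 to 6 and 0 to 13. For DHX9KO windows DESeq2 gave 1 and 1, and leaving out 1 library 0 to 6 and 0 to 10. UHRF1KO regions lower (15) and higher (2) became 0 and 0 with equal library sizes and with all regions called in every library, 2 and 0 with all 6 libraries in one fit, 10 higher with no length offset, and 0 to 31 and 0 to 19 without 1 library. DHX9KO regions lower (2) became 4 with DESeq2, 1 with all regions (neither of the 2), 0 with all 6 libraries and 1 to 40 without 1 library, and higher (0) 0 to 14. The cause of these moves was not tested.

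Libraries of different groups share replicate numbers. Deviations of same-numbered libraries correlated at -0.19 and 0.16 over windows and 0.06 and -0.07 over regions for UHRF1KO and DHX9KO. These weak values show no clear pairing by number. With 2 libraries per group they cannot exclude one. With the replicate block, 1 UHRF1KO window was lower and 4 higher, and 6 DHX9KO regions were lower and 1 higher; with the crossed pairing, added after seeing the data, 2 and 5 UHRF1KO windows, 6 higher UHRF1KO regions, and 8 lower and 1 higher DHX9KO regions were called.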
